A study of Mus musculus with 6 samples.

Results

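The cytosolic ribosomal protein genes were followed through the E, M and RE stages of EpH4 cells. They were chosen by name alone: a gene symbol that starts with Rpl or Rps and goes on as a ribosomal protein name does, plus the stalk genes Rplp0, Rplp1 and Rplp2 and the laminin receptor gene Rpsa, leaving out pseudogene rows and the ribosomal S6 kinases. The rule used no measured value and found 81 of the 17428 genes in the table, with 31 of the small subunit, 42 of the large subunit, 3 of its stalk and 5 paralogues of other members (Rpl3l, Rpl7l1, Rpl22l1, Rpl36al and Rps27l).

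EpH4 is a near-normal, non-cancer mouse mammary epithelial cell line. E cells were grown without TGFβ1, M cells were E cells kept for 7 days in TGFβ1, the inducer of epithelial-mesenchymal transition, and RE cells were M cells cultured for another 4 days after its removal. All cultures shared the same medium with serum, antibiotics and insulin. RNA was sequenced from 2 biological replicates per stage, and since all come from 1 line, p-values measure the spread between these cultures only.

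Each cytosolic ribosome has a small subunit, which reads the message, and a large subunit, which joins the amino acids, and each subunit holds ribosomal RNA and a set of ribosomal proteins. Nearly all of the proteins are needed in equal numbers, and many of their messages begin with a C followed by a run of pyrimidines, the 5′ terminal oligopyrimidine (TOP) sequence through which mTORC1 and Larp1 set how strongly they are translated. Their genes are short, among the most highly expressed in growing cells, targets of Myc, and the source of a large number of processed pseudogenes.

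The starts of the genes are shown first, because the pyrimidine run is the sequence feature this family is best known for. RefSeq promoter sequences (GRCm38.p6, a newer build than the one the reads were mapped to) were at hand for 61 of the 81 genes. A run, defined as a C followed only by C or T for at least 6 bases in all and beginning within 10 bases before or 15 bases after an annotated start on the transcribed strand, was present in 35 of the 61 (57.4%). It was present in 26.1% of the 10502 other genes of the table with a promoter entry. A run of at least 5 bases beginning exactly at the annotated start was present in 13 members (21.3%) and in 2.89% of the other genes. The 30-base windows of 8 genes that passed an adjusted p of 0.01 in the comparisons with E cells, and of Rpl4 and Rps3, among the 4 with the highest coverage, follow 5′ to 3′ from 10 bases before the start, with the run in capitals.
Rps6, chr4:86857348-86857377, minus strand: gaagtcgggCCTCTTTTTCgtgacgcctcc
Rps18, chr17:33955646-33955675, minus strand: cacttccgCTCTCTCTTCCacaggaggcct
Rps12, chr10:23787190-23787219, minus strand: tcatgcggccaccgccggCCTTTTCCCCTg
Rpl13a, chr7:45128726-45128755, minus strand: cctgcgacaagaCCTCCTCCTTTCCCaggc
Rpl38, chr11:114668570-114668599, plus strand: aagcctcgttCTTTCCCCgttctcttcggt
Rpl31, chr1:39367841-39367870, plus strand: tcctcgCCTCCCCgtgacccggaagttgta
Rpl11, chr4:136053374-136053403, minus strand: ccataaggccacggggccggaagtCTCCCT
Rpl23, chr11:97782420-97782449, minus strand: gtccggtcacgtggctgagtgggcggggcc
Rpl4, chr9:64173377-64173406, plus strand: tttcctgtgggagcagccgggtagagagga
Rps3, chr7:99483690-99483719, minus strand: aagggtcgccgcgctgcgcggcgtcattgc
The runs lie in different places around the annotated start, and Rpl23, Rpl4 and Rps3 have no run by this definition. A match describes the letters around an annotated start and is not a measured start.

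The deposited values behave as coverage (the bases of all reads on a gene added up), and the libraries hold between 35782513 and 47928556 reads' worth of 50 bases. Coverage was scaled with TMM factors and is given as ppm of each library's total bases times its factor. Each value is thus relative to the other genes of a library and not an amount per cell. Fewer cells of a type and less RNA per cell cannot be told apart. The epithelial markers that were fixed for the label (Krt7, Krt8, Krt18, Cdh1 and others) were present in all libraries, with a summed level between 2871 and 3106 ppm in E and M cells and between 1128 and 1251 ppm in RE cells. Basal or myoepithelial markers summed to between 308 and 374 ppm in E, 708 and 815 ppm in M and 493 and 494 ppm in RE cells, and stromal markers to between 17.9 and 19.8 ppm, 29.8 and 33.4 ppm and 77.6 and 95.4 ppm. Endothelial markers summed to at most 0.306 ppm in E, 2.60 ppm in M and 0.410 ppm in RE cells, adipocyte markers to between 3.12 and 9.02 ppm in E, at most 0.0732 ppm in M and between 1.87 and 2.204 ppm in RE cells, and leukocyte markers to between 5.39 and 9.46 ppm. The part of these markers in the results was not tested.

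The ribosomal protein genes stood highest in E cells and lower in both M and RE cells. Their summed coverage was 5659 and 4507 ppm in the E libraries, 3689 and 3652 ppm in the M libraries and 3264 and 3568 ppm in the RE libraries. The E libraries lie above all others, but they also lie farther apart from each other than the libraries of the other stages do. The group means were 5083 ± 814 ppm in E, 3670 ± 26.7 ppm in M and 3416 ± 215 ppm in RE cells (SD, n = 2). The 4 genes with the highest coverage, Rpl4, Rpl8 and Rps3 among them, made up between 57.5% and 62.4% of this sum. Without them the sum was 2089 ± 444 ppm in E, 1386 ± 1.82 ppm in M and 1302 ± 82.5 ppm in RE cells (SD, n = 2), the same order. The order of M and RE depended on the scaling. With library totals only, the mean sum of all members was 5568 ppm in E, 3263 ppm in M and 3520 ppm in RE cells.

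**Figure D1:**
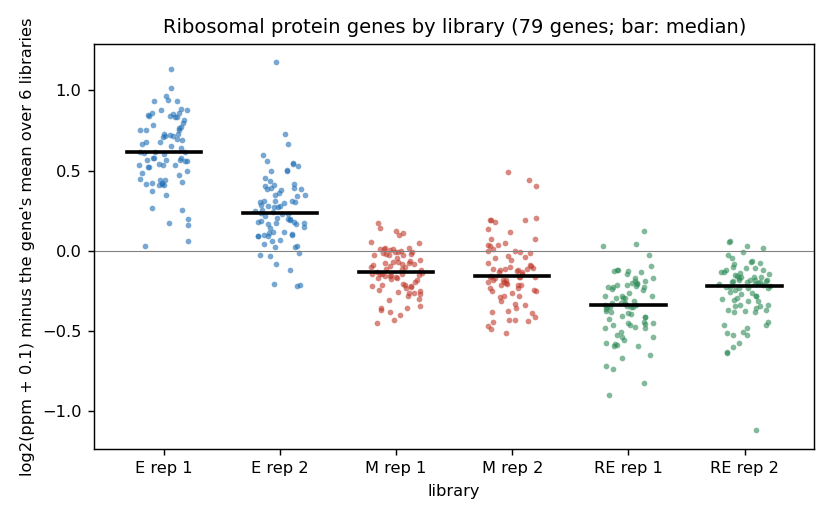
Each point is 1 of the 79 ribosomal protein genes tested, as its log2(ppm + 0.1) in a library minus its mean over the 6 libraries (vertical axis, log2 units), and bars are medians. The medians are 0.62 and 0.24 in the E libraries, -0.13 and -0.16 in the M libraries and -0.34 and -0.22 in the RE libraries.

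The E replicates differed in these genes as a family. Coverage was higher in E replicate 1 than in E replicate 2 for 72 of the 79 genes tested (91.1%, against 50.5% of all genes tested), with a median ratio of 1.32. The median difference between replicates was 0.40 on the log2 scale in E cells, 0.01 in M cells and -0.12 in RE cells, and over all genes it was 0.01 in E cells. Rps18, Rpl23a, Rpl28, Rpl29, Rpl36 and Rps28 were among the 7 genes that were not higher in E replicate 1.

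Transcript length moves with this difference. The ribosomal protein transcripts had a median length of 799 bases, against 2950 bases over the 12990 genes tested that have an annotated length, while their GC content was about the same (50.7% and 50.5%). Across those genes, which are not independent replicates, the log2 difference of E replicate 1 from E replicate 2 had a Spearman rho of -0.44 with length. The log2 fold changes had a rho with length of 0.30 (E vs. M), 0.35 (E vs. RE) and -0.02 (M vs. RE). For the family as a whole, each comparison with E cells is therefore also given without each E library. It is also given after the dependence on length and GC content was removed in each library. Trend-removed values follow for some of the called genes too. Values of other single genes, of the subunits and splits of the family and of other gene lists are as fitted only.

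In E vs. M, which asks what TGFβ1 treatment changed, 3 genes, Rps6 and Rpl31 among them, fell by more than 1 on the log2 scale and 5 more genes fell by less. limma with Benjamini-Hochberg adjustment over the 13893 genes tested found an adjusted p under 0.01 for 8 of the 79 genes, all lower in M cells, and for 0 in the other direction. Of all genes tested 11.2% were lower and 12.6% higher at this threshold, so the share of ribosomal protein genes (8 of 79) lies near the background. At an adjusted p under 0.05, 35 of the 79 were lower, where 20.2% of all genes were. The 3 genes that fell by more than 1 were the only DEGs of the family (log2 fold change above 1 either way and adjusted p under 0.01), against 8.35% of all genes that were DEGs lower in M cells.

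Few genes of the family changed singly, but nearly all lay on the same side of 0. The log2 fold change was below 0 for 78 of the 79 genes, against 50.1% of all genes, and both M libraries lay below both E libraries for 65 of the 79, against 35.6% of all genes. The median log2 fold change was -0.54 (a fold of 0.687), and over all genes it was -0.0025. With the trend on GC content and length removed the median became -0.23, 56 of the 79 genes were below 0, 7 were lower at an adjusted p under 0.01 (13.9% of all genes) and none was a DEG. Without E replicate 1 the median was -0.36 and without E replicate 2 it was -0.77, and the genes past an adjusted p of 0.01 were then 15 and 51, with 0 and 21 DEGs, where 18.3% and 25.5% of all genes were lower at that threshold. When an M or an RE library was left out, none of the 79 passed an adjusted p of 0.01, and the share of all genes lower at that threshold dropped to between 3.46% and 6.25%.

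In E vs. RE, which asks whether the stage after removal of TGFβ1 matches the start, all 79 genes had a log2 fold change below 0, with a median of -0.75 (a fold of 0.594). An adjusted p under 0.01 was found for 10 genes, all lower in RE cells, where 4.77% of all genes were lower and 7.95% higher, and 50 of the 79 were lower at an adjusted p under 0.05, where 13.6% of all genes were. Rpl11, Rpl17, Rpl31, Rpl38, Rps6, Rps12, Rps18 and Rps27l were DEGs, against 3.16% of all genes that were DEGs lower in RE cells. Both RE libraries lay below both E libraries for 73 of the 79 genes, against 33.3% of all genes. With the trend on GC content and length removed the median became -0.39, 65 of the 79 genes were below 0, 9 were lower at an adjusted p under 0.01 (8.29% of all genes) and 2 were DEGs. Without E replicate 1 the median was -0.53, with 30 genes past an adjusted p of 0.01 and 7 DEGs, and without E replicate 2 it was -0.96, with 61 and 35, where 14.0% and 20.6% of all genes were lower at that threshold. When an M or an RE library was left out, none of the 79 passed an adjusted p of 0.01, but then at most 1.44% of all genes were lower at that threshold, and without RE replicate 1 it was 0%.

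In M vs. RE no ribosomal protein gene passed an adjusted p of 0.01 or of 0.05 in limma, while 7.18% of all genes were lower and 9.28% higher in RE cells at 0.01, with 15% lower at 0.05 and 4.79% called as DEGs lower in RE cells. At an unadjusted p under 0.05, 8 of the 79 genes were lower and 0 higher, where 21.2% of all genes were lower and 21.8% higher. The log2 fold change was below 0 for 61 of the 79, against 51.7% of all genes, with a median of -0.16. Both RE libraries lay below both M libraries for 37 genes, against 41.1% of all genes. The direction of this median depended on the scaling. When only library totals were used it was 0.052, while the median of all genes moved to 0.18. The count of 0 at an adjusted p of 0.05 depended on the fit, as 10 genes were lower without E replicate 1 (29.6% of all genes), 9 without E replicate 2 (28.8%), 9 in a fit of only M and RE (29.3%) and 12 with array weights (28.8%). In the fit of all 6 libraries, 0 genes of the family were higher in RE cells at an adjusted p under 0.05. Of all 13893 genes tested, 2322 were. Rises at that threshold were not counted in the other fits.

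**Figure D2:**
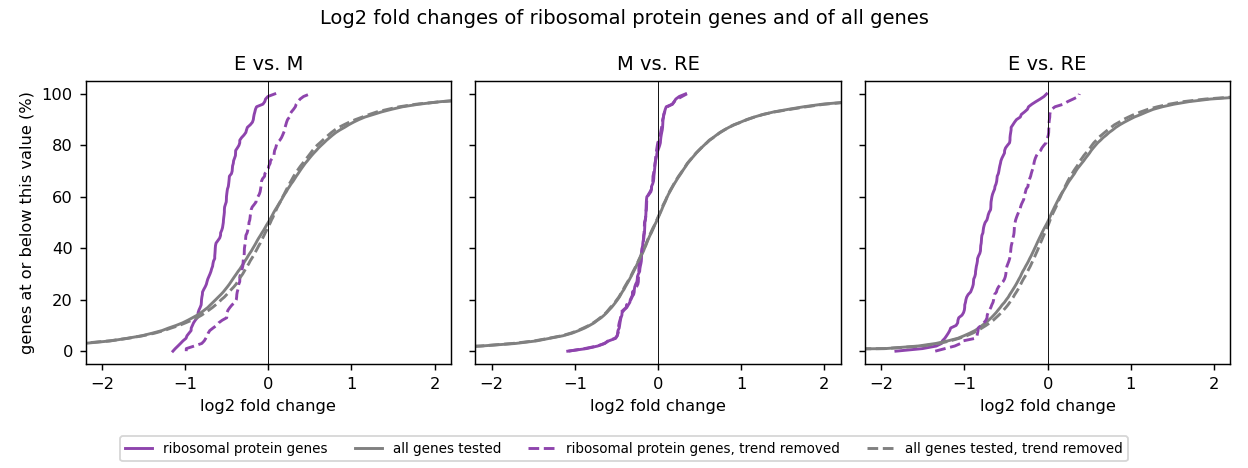
Cumulative share of genes (vertical axis, %) against log2 fold change (horizontal axis) in the 3 comparisons, for the 79 ribosomal protein genes (purple) and all genes tested (grey), as fitted (solid) and with the trend on GC content and length removed (dashed). The purple curves of the comparisons with E cells lie left of 0, at medians of -0.54 and -0.75, and move right to -0.23 and -0.39 once the trend is removed, while in M vs. RE the 2 purple curves lie on each other.

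The 13 genes past an adjusted p of 0.01 in a comparison with E cells come from both subunits. The comparisons E vs. M and E vs. RE share the E libraries, so their values are set side by side and do not support each other.

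Of the small subunit, Rps6, the target of the S6 kinases downstream of mTORC1, was at 18.7 and 14.0 ppm in E cells, 7.18 and 7.72 ppm in M cells and 7.62 and 7.56 ppm in RE cells. M and RE libraries overlap and all lie below both E libraries. Its log2 fold change was -1.11 ± 0.19 (SE, adjusted p = 0.00332) from E to M and -1.08 ± 0.19 (adjusted p = 0.00625) from E to RE. Rps6 also passed in both comparisons with the GC and length trend removed and without either E library. None of its 50-base coding windows is unique among annotated genes.

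Rps18, a protein of the head of the small subunit, is the gene of this group in which the E replicates agreed best, with 5.89 and 6.05 ppm. It was at 3.33 and 3.23 ppm in M cells and at 2.52 and 2.29 ppm in RE cells, so the 3 stages do not overlap. In E vs. RE it fell by 1.28 ± 0.19 on the log2 scale (adjusted p = 0.00356). In E vs. M its log2 fold change of -0.85 ± 0.19 had an adjusted p of 0.0103, and with the trend removed the adjusted p was 0.199 from E to M and 0.0180 from E to RE.

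Rps12, another small subunit protein, was at 18.2 and 13.2 ppm in E, 8.55 and 9.29 ppm in M and 7.69 and 6.94 ppm in RE cells, and fell in E vs. RE by 1.08 ± 0.20 (adjusted p = 0.00790). Rps19, the gene most often mutated in Diamond-Blackfan anaemia, was at 24.6 and 18.4 ppm in E, 12.1 and 10.5 ppm in M and 11.03 and 12.2 ppm in RE cells, and fell in E vs. M by 0.91 ± 0.19 (adjusted p = 0.00780). For both genes M and RE libraries were closer to each other than to E. Neither passed in these comparisons once the trend was removed (adjusted p = 0.0216 for Rps12 in E vs. RE and 0.0768 for Rps19 in E vs. M).

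Of the large subunit, Rpl17, which lies at the exit of the peptide tunnel, was at 9.71 and 7.52 ppm in E, 4.37 and 4.52 ppm in M and 3.07 and 3.23 ppm in RE cells. The 3 stages do not overlap, with RE lowest. It fell by 0.93 ± 0.20 in E vs. M (adjusted p = 0.00887) and by 1.41 ± 0.20 in E vs. RE (adjusted p = 0.00306), and with the trend removed the adjusted p were 0.0206 and 0.00250, so that the call in E vs. M was lost.

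Rpl31, also at the tunnel exit, was at 11.7 and 8.996 ppm in E, 4.86 and 4.80 ppm in M and 5.01 and 5.10 ppm in RE cells. It fell by 1.07 ± 0.19 in E vs. M (adjusted p = 0.00425) and in E vs. RE to a fold of 0.498 (SE 0.19 on the log2 scale, adjusted p = 0.00858).

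Rpl11, which with Rpl5 and the 5S RNA can bind Mdm2, was at 3.49 and 3.21 ppm in E, 1.92 and 2.37 ppm in M and 1.26 and 1.48 ppm in RE cells. Rpl38, known for its part in the translation of Hox messages, was at 2.70 and 2.19 ppm in E, 1.44 and 1.26 ppm in M and 0.990 and 0.911 ppm in RE cells. In both genes the stages do not overlap and RE is lowest. In E vs. RE Rpl11 fell by 1.23 ± 0.23 (adjusted p = 0.00784) and Rpl38 by 1.27 ± 0.24 (adjusted p = 0.00860), but with the trend removed their adjusted p were 0.0194 and 0.0664.

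The remaining called genes of the large subunit are more abundant. Rpl13a was at 165 and 131 ppm in E, 88.1 and 86.9 ppm in M and 81.05 and 90.9 ppm in RE cells, and fell by 0.75 ± 0.15 in E vs. M (adjusted p = 0.00697) and by 0.78 ± 0.15 in E vs. RE (adjusted p = 0.00932). With the trend removed both calls were lost (adjusted p = 0.0157 and 0.0154). Rpl23, another Mdm2-binding protein, was at 59.2 and 39.1 ppm in E, 24.7 and 23.9 ppm in M and 28.1 and 29.1 ppm in RE cells, and fell by 0.99 ± 0.20 in E vs. M (adjusted p = 0.00726). In both the libraries of M and RE cells lie close together and below E. With the trend removed, an adjusted p under 0.01 was kept by 5 of these 8 genes from E to M and by 5 of these 10 from E to RE, and all 13 had log2 fold changes below 0 in both comparisons.

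**Figure D3:**
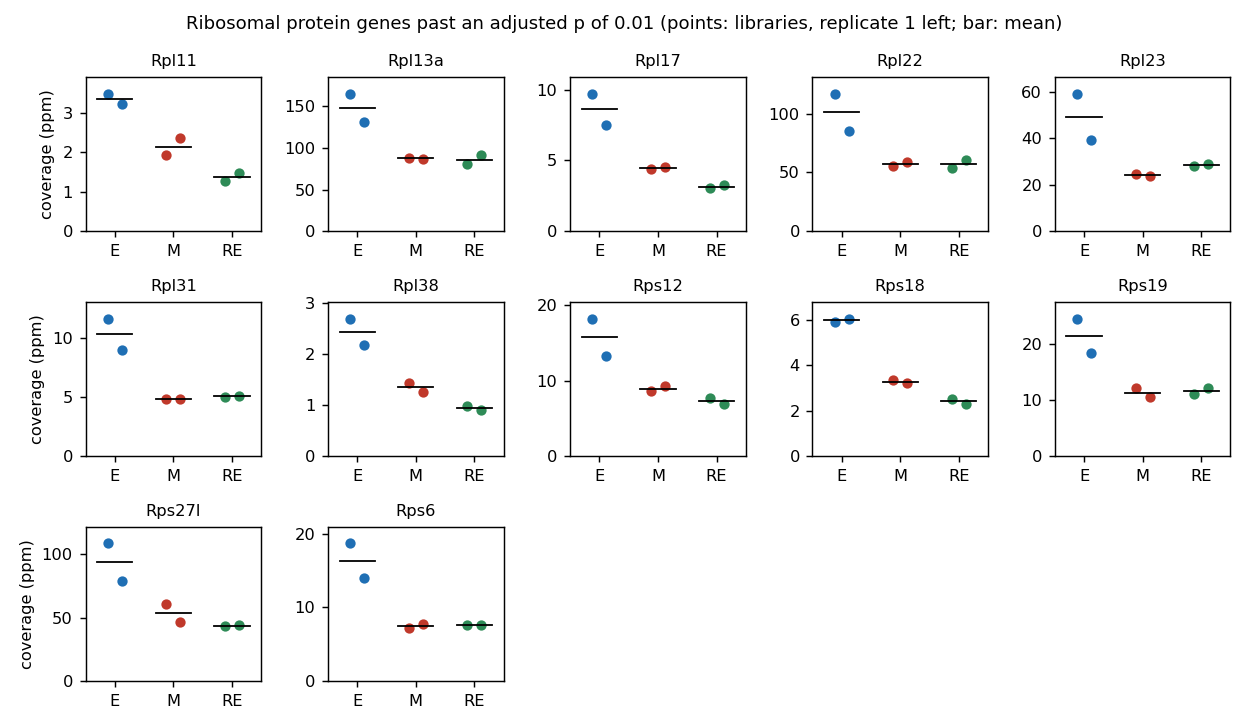
Coverage (vertical axis, ppm, from 0) of 12 of the 13 ribosomal protein genes with an adjusted p under 0.01 in E vs. M or E vs. RE, with 1 point per library (replicate 1 left, replicate 2 right) and a bar at the group mean. In all 12 genes both E points lie above all M and RE points, and Rps18 has E points of 5.89 and 6.05 ppm that nearly coincide.

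By subunit, the medians differed little. The 42 large subunit genes had a median log2 fold change of -0.54 in E vs. M and -0.74 in E vs. RE, and the 30 small subunit genes tested had -0.55 and -0.74. At an adjusted p under 0.01, 6 of the 42 and 2 of the 30 were lower from E to M, where 11.2% of all genes were, and 6 and 3 from E to RE, where 4.77% were. Of the stalk genes, whose proteins recruit the translation factors, Rplp0 was at 75.7 and 57.4 ppm in E, 47.1 and 44.4 ppm in M and 39.4 and 42.7 ppm in RE cells. Its log2 fold change was -0.53 ± 0.16 in E vs. M (adjusted p = 0.0360) and -0.68 ± 0.16 in E vs. RE (adjusted p = 0.0193). Rplp1 (-0.64 and -0.81) and Rplp2 (-0.86 and -0.997) had values of the same order in the same comparisons, and none of the 3 passed an adjusted p of 0.01. Rpsa, whose product is also known as the laminin receptor, was at 11.7 and 9.91 ppm in E, 7.25 and 8.19 ppm in M and 5.27 and 6.12 ppm in RE cells. Its log2 fold change was -0.48 ± 0.18 from E to M (adjusted p = 0.0728) and -0.91 ± 0.18 from E to RE (adjusted p = 0.0108).

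A few genes stood close to 0. Rpl7l1, a paralogue of Rpl7 with a known role in ribosome assembly, was the 1 gene with a log2 fold change above 0 in E vs. M. It was at 54.2 and 41.2 ppm in E, 51.4 and 48.4 ppm in M and 44.0 and 49.9 ppm in RE cells, and the stages overlap (0.08 ± 0.17 from E to M, adjusted p = 0.732, and -0.01 ± 0.17 from E to RE, adjusted p = 0.964). Its parent Rpl7, in contrast to these values, was at 75.8 and 58.3 ppm in E, 44.0 and 39.7 ppm in M and 39.6 and 41.2 ppm in RE cells. Its log2 fold change was -0.67 ± 0.16 from E to M (adjusted p = 0.0140) and -0.72 ± 0.16 from E to RE (adjusted p = 0.0154). The difference between the 2 genes was not tested. Rpl3, which reaches into the peptidyl transferase centre, was at 23.7 and 20.5 ppm in E, 20.8 and 22.4 ppm in M and 18.1 and 18.9 ppm in RE cells (-0.03 ± 0.15 with adjusted p = 0.887 in E vs. M). Rps27a, which is made as a fusion with ubiquitin, had the lowest log2 fold change of the family in E vs. M but did not pass (-1.15 ± 0.26, adjusted p = 0.0116), with 9.38 and 5.74 ppm in E and 3.28 and 3.24 ppm in M cells. It and the genes near 0 were picked after their values were seen, apart from the paralogues and their parents.

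The other paralogues can be read beside their parents as levels per kb of coding length. Rps27l, a p53 target, had 368 ppm per kb in E, 211 in M and 171 in RE cells, where its parent Rps27 had 1.62, 1.22 and 1.01 ppm per kb. Rpl36al likewise had 48.5, 34.3 and 29.8 ppm per kb where Rpl36a had 4.86, 2.62 and 2.56 ppm per kb. In both pairs the paralogue carried more coverage than its parent at each stage. Of the 50-base coding windows, 51.0% were unique in Rps27l and 0% in Rps27, and 0% in both Rpl36al and Rpl36a, and the part of this in the levels was not tested. Rpl22, in turn, had 262, 148 and 148 ppm per kb and its paralogue Rpl22l1 had 45.3, 23.1 and 24.4 ppm per kb.

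Rps27l was at 109 and 78.8 ppm in E, 60.6 and 46.9 ppm in M and 43.4 and 44.0 ppm in RE cells and fell in E vs. RE by 1.08 ± 0.19 (adjusted p = 0.00712). Rpl22, known from T-cell development, was at 117 and 85.6 ppm in E, 55.7 and 58.7 ppm in M and 54.0 and 60.7 ppm in RE cells and fell in E vs. M by 0.81 ± 0.17 (adjusted p = 0.00890). Rpl22l1 had log2 fold changes of -0.93 ± 0.24 (adjusted p = 0.0195) and -0.84 ± 0.24 (adjusted p = 0.0370), and Rpl36al of -0.48 ± 0.20 (adjusted p = 0.0853) and -0.68 ± 0.20 (adjusted p = 0.0365), in E vs. M and E vs. RE. Rpl3l, the muscle paralogue of Rpl3, had between 0 and 209 bases per library, at most about 4 reads, and was not tested. Rps29, of the small subunit, had between 259 and 632 bases and was not tested either.

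The levels of the genes tested ranged from 0.773 to 882 ppm per kb, although ribosomes hold nearly all of the proteins in equal numbers. Rpl8, at the peptidyl transferase centre, had 882 ppm per kb of coding length, Rpl4, which lines the tunnel, had 725, Rps3, at the entry of the message, had 609 and Rps14 had 320 ppm per kb. At the other end of the genes tested, Rpl29 had 0.773, Rps27 had 1.28, Rps28 had 2.61, Rpl26 had 2.96 and Rpl36a had 3.35 ppm per kb. The 4 most abundant genes had log2 fold changes between -0.26 (Rpl8) and -0.44 (Rpl4) in E vs. M, with Rpl4 at 1229 and 1025 ppm in E, 814 and 841 ppm in M and 751 and 819 ppm in RE cells. None of the 4 passed an adjusted p of 0.01.

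Levels moved with how much of a gene's sequence is its own. Each coding sequence was cut into overlapping windows of 50 bases, the read length, and each window was looked up in all other annotated transcripts, pseudogenes included. In 29 of the 81 genes no window was unique, the median gene had 8.36% unique windows, and 13 genes had at least 50%. The level per kb had a Spearman rho of 0.58 with the share of unique windows over the 81 genes, given as a description since the genes share libraries. The median level was 229 ppm per kb in the 13 genes with at least 50% and 9.73 ppm per kb in the 37 genes with under 5%. The study's methods speak of unique reads without saying how reads with several matches were treated, and its part in these levels was not tested. Rpl13a is a gene against this order, with 2.49% unique windows and 175 ppm per kb, the highest level of the 37, and Rpl3l, with all windows unique, had nearly no coverage.

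**Figure D4:**
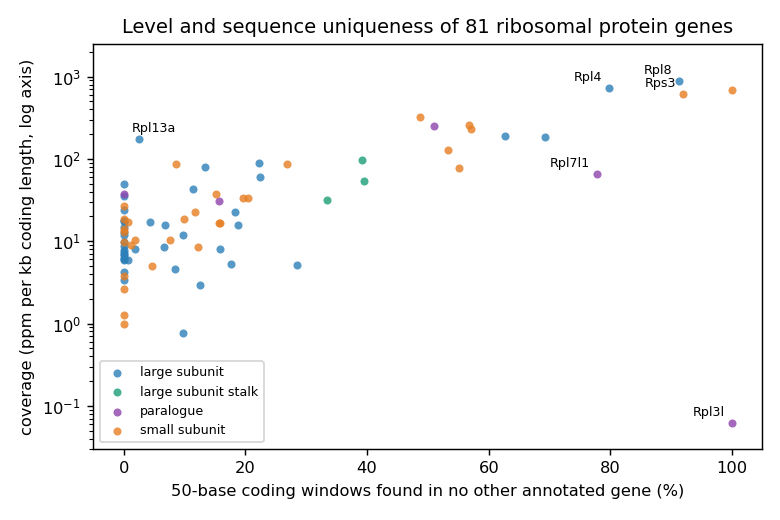
Mean coverage of the 81 genes (vertical log axis, ppm per kb of coding length) against the share of their 50-base coding windows found in no other annotated gene (horizontal axis, %), coloured by subunit class. Rpl8, Rpl4 and Rps3 lie at the upper right (609 to 882 ppm per kb), and the genes with under 5% unique windows spread from 0.975 to 175 ppm per kb.

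Fold changes can be read by the same split. The 12 genes tested with at least 50% unique windows had a median log2 fold change of -0.44 in E vs. M, with 11 below 0, and of -0.52 in E vs. RE, with all 12 below 0. The 36 genes tested with under 5%, out of 79, had medians of -0.50 and -0.78. They held 2 of the 3 DEGs in E vs. M and 6 of the 8 DEGs in E vs. RE. Likewise, the 35 genes with a pyrimidine run in the search range around an annotated start had medians of -0.64 and -0.80. The 25 tested genes without one had -0.48 and -0.68. These splits were not tested.

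The wider translation machinery was taken from lists of other genes. Their values are given as fitted, without removing the trend on GC content and length. The part of transcript length in differences between lists was not tested. The mitochondrial ribosomal proteins, which build the separate ribosome of that organelle, also lay mostly below 0, as 74 of 76 had a log2 fold change below 0 in E vs. M and 73 of 76 in E vs. RE, with medians of -0.44 and -0.52. At an adjusted p under 0.01, 13 were lower in E vs. M and 7 in E vs. RE, with 0 higher. Of all genes tested 11.2% and 4.77% were lower at this threshold. Mrpl55 was at 12.5 and 13.1 ppm in E and at 6.29 and 5.34 ppm in M cells and was the 1 DEG of the list in E vs. M (log2 fold change -1.13, adjusted p = 0.00201). Mrps6 was the 1 gene that passed in M vs. RE, from 32.6 and 30.5 ppm in M to 58.5 and 58.1 ppm in RE cells (0.89, adjusted p = 0.00720).

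Translation and assembly factors had medians nearer to 0 in E vs. M. The 13 elongation factors and other TOP messages had medians of -0.09 (E vs. M), -0.33 (M vs. RE) and -0.44 (E vs. RE). In the first 2 comparisons 0 genes passed an adjusted p of 0.01 and in the third 1 did (Eef1e1, lower). Of all genes 11.2%, 7.18% and 4.77% were lower at this threshold in these comparisons. The 31 initiation factors had medians of -0.03, -0.18 and -0.26. Among them Eif6, which keeps the free large subunit from joining the small one, was at 213 and 171 ppm in E, 334 and 330 ppm in M and 129 and 145 ppm in RE cells. It rose by 0.80 in E vs. M (adjusted p = 0.00502) and fell by 1.28 in M vs. RE (adjusted p = 0.000831), with E libraries between those of the other stages. Eif3g, a subunit of the eIF3 complex, was lower in E vs. M (-0.55, adjusted p = 0.00905).

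The 54 ribosome biogenesis genes had medians of -0.05 (E vs. M), -0.33 (M vs. RE) and -0.38 (E vs. RE). At an adjusted p under 0.01, 1 was higher and 1 lower in E vs. M, where 12.6% and 11.2% of all genes were. In M vs. RE 3 were lower and in E vs. RE 7, where 7.18% and 4.77% of all genes were lower. Ebna1bp2, an assembly factor of the large subunit, was at 154 and 150 ppm in E, 102 and 94.5 ppm in M and 66.3 and 73.8 ppm in RE cells. Its values step down from stage to stage with no overlap, and it was a DEG in E vs. RE (-1.12, adjusted p = 0.00139). Tsr1, of small subunit assembly, rose in E vs. M (0.60, adjusted p = 0.00589). Utp20, Rrp9 and Tcof1, which act in the processing or transcription of ribosomal RNA, fell in M vs. RE by 0.88, 0.88 and 0.93 (adjusted p = 0.00436, 0.00550 and 0.00984).

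Of the 12 genes of RNA polymerase I, which makes the ribosomal RNA precursor, Rrn3 rose (0.78, adjusted p = 0.00360) and Znrd1 fell (-0.77, adjusted p = 0.00578) in E vs. M. None passed an adjusted p of 0.01 in the other comparisons in limma. At an unadjusted p under 0.05, 2 were higher and 2 lower from M to RE, where 21.8% and 21.2% of all genes were. From E to RE 1 was higher and 4 lower, where 3206 and 2850 of the 13893 genes tested were. The ribosomal proteins outside the name rule, Fau and Gnb2l1 (also called Rack1), had log2 fold changes of -0.26 and -0.24 in E vs. M and -0.46 and -0.38 in E vs. RE. Neither passed an adjusted p of 0.01. Gnb2l1 was at 1802 and 1563 ppm in E, 1455 and 1398 ppm in M and 1249 and 1333 ppm in RE cells.

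Among the 16 regulators tested, Myc, the transcription factor that drives ribosome production, was at 228 and 337 ppm in E, 84.6 and 71.0 ppm in M and 115 and 115 ppm in RE cells. It fell by 1.84 in E vs. M (adjusted p = 0.000464) and by 1.27 in E vs. RE (adjusted p = 0.00433), and its higher E library is replicate 2, unlike in the ribosomal protein genes. Eif4ebp1, the repressor of cap-dependent initiation that mTORC1 switches off, was at 68.5 and 86.9 ppm in E, 38.4 and 40.2 ppm in M and 18.3 and 23.6 ppm in RE cells. Sesn1, an inhibitor of mTORC1, was at 30.4 and 22.1 ppm in E, 27.4 and 25.1 ppm in M and 128 and 112 ppm in RE cells, and rose by 2.19 in M vs. RE (adjusted p = 0.000163). Larp4, which binds poly(A) tails, rose by 1.40 in E vs. M (adjusted p = 0.000803). Larp1, the TOP-binding protein, passed in no comparison (0.07 with adjusted p = 0.782 in E vs. M). Whether any of these moved the ribosomal protein genes was not tested.

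**Figure D5:**
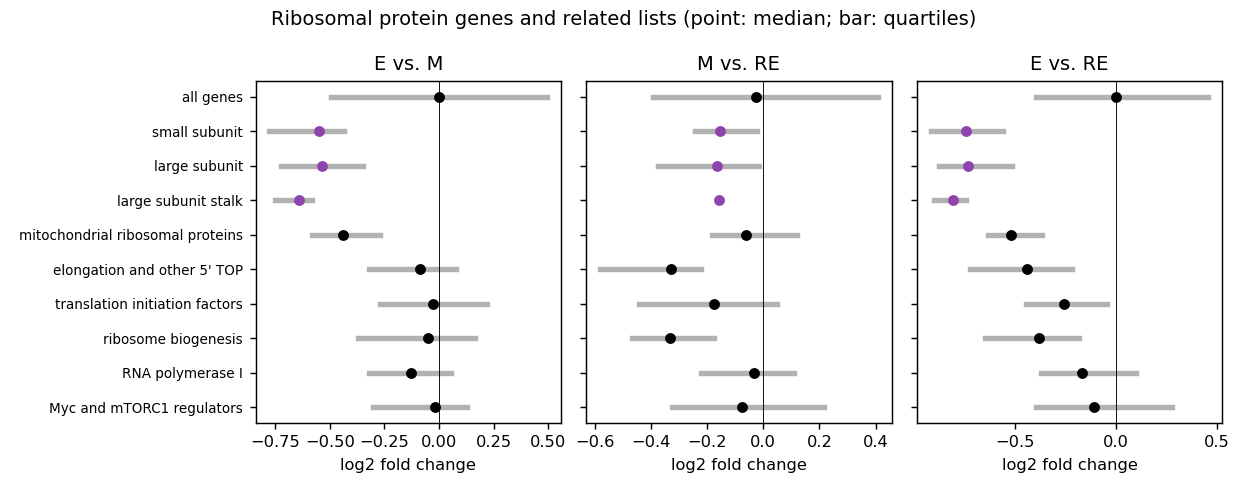
Median (point) and quartiles (bar) of the log2 fold change (horizontal axis) in each gene list for the 3 comparisons, with the subunits of the cytosolic ribosome in purple. The purple medians lie between -0.54 and -0.64 in E vs. M and between -0.74 and -0.81 in E vs. RE, and the mitochondrial ribosomal proteins lie at -0.44 and -0.52.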

How the data were processed

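RNA of 2 cultures each of E, M and RE cells was sequenced. Per the study's methods the authors mapped unique reads to the mouse genome NCBI-m37 with Bowtie and TopHat2 (versions and the summing step not given in the sources used here) and deposited 1 table for 17428 genes, whose values were handled as a coverage signal (bases per gene), not read counts, so that the edgeR test of the methods was not run.

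Coverage was scaled to ppm of the library total with TMM factors without weights (0.875 to 1.12; 30% of log ratios and 5% of levels trimmed). Genes with at least 500 bases in 2 libraries (13893) were fitted with limma 3.58.1 (R 4.3.3) on log2(ppm + 0.1), all 6 libraries, group only, with a trend on mean level and Benjamini-Hochberg adjustment. Positive values mean higher in M (E vs. M) or RE (M vs. RE, E vs. RE). The log2 scale with its pseudocount understates changes of low genes. The script was tested on simulated data. Lengths and coding sequences came from GENCODE M21 on GRCm38 and matched 93.5% of the genes tested. Members and gene lists were chosen with earlier results of these data known. Genes named are DEGs, paralogues with parents, extremes of level and of change, and in each other list those with the smallest adjusted p. The replicate numbers were not treated as pairs. Alternatives covered scaling, filter, pseudocount, model, GC and length, thresholds and leaving out each library. An Rpl30 row was not analysed here, and some single genes that the counts include are not reported here.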

Additional observations from a re-analysis of the deposited data

How the results depend on the processing

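With 2 libraries per stage and E libraries that lie apart, counts of calls changed with the fit, and depth was not varied. The direction of the family's median held under all alternatives run in E vs. M and E vs. RE. When the replicate number was fitted as a block, 6 genes passed an adjusted p of 0.01 in E vs. M and 5 in E vs. RE, with 4 DEGs in E vs. RE, 1 gene passed 0.05 in M vs. RE, and the block moved no other count of calls at 0.01 or of DEGs by over 1.5 times. Same-numbered deviations correlated by 0.27 (E and M), 0.06 (E and RE) and 0.12 (M and RE), so the numbers were not taken as pairs. With the GC and length trend removed, DEGs were 0 in E vs. M and 2 in E vs. RE and the medians -0.23 and -0.39, and with the block added these were the same, with 5 genes past an adjusted p of 0.01 in E vs. RE. With library totals only, E vs. M had 28 genes past an adjusted p of 0.01, 16 DEGs and a median of -0.84. The M vs. RE median then turned to 0.052, and the sum in M cells (3263 ppm) lay below that in RE cells (3520 ppm). Without a filter 4 and 3 genes passed in E vs. M and E vs. RE, with 2 DEGs in E vs. RE. A pseudocount of 1 gave 1 and 4 DEGs. A fit of only the 2 groups compared gave 0 genes past the threshold and 0 DEGs in both, where 6.17% and 1.02% of all genes were lower, and the cause was not tested. Array weights gave 1 gene in M vs. RE, and 5 genes and 3 DEGs in E vs. RE. An adjusted p under 0.05 gave 35 and 50 genes, with 13 DEGs in E vs. RE. Genes with at least 50% unique windows had a median of -0.52 in E vs. RE, a setting added after seeing the data. Leaving out each library in turn, with a lone sample assumed to vary like the other groups, gave 0 to 51 genes and 0 to 21 DEGs in E vs. M, 0 to 61 genes and 0 to 35 DEGs in E vs. RE, and 0 and 0 in M vs. RE. The medians then ranged from -0.77 to -0.36, from -0.96 to -0.53 and from -0.21 to -0.07. The sums over genes ranged from 2089 to 4909 ppm in E, 1386 to 3547 ppm in M and 1302 to 3307 ppm in RE cells when single genes or the paralogues were left out, the latter giving 3547 ppm in M cells. For single named genes, 3141 values stayed on their side of the threshold, 253 no longer passed and 251 newly passed. The sign changed in 104 of the 3645, 26 of them with library totals only and 23 with the GC and length trend removed, and 0 of these passed the threshold before or after. The causes of these shifts were not tested where none is named.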
